A study of Mus musculus with 5 samples.

Results

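Cholesterol and fatty acid synthesis was followed through 33 genes, picked by symbol in the deposited expression table, which held all 33 among its 30478 genes. They are 18 enzymes of the mevalonate and sterol pathway, 5 regulators or carriers of sterol control, and 10 genes of fatty acid synthesis and desaturation. Messenger RNA came from macrophages of the mouse peritoneum, the lining of the abdomen, sorted by flow cytometry and sequenced with a strand-specific kit. The mutant group had 2 libraries from 8-week female C57BL/6 mice that were both Samhd1 del/del and cGAS-GFP ki/ki. The wild-type (wt) group had 3 libraries from C57BL/6 mice, of which wt 1 was a 13-week male, wt 2 a 13-week female and wt 3 a 9-week female. Both genetic changes occur in each mutant library, and the mutants are also the youngest, so a difference between the groups cannot be told apart from age or assigned to either allele.

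Cells build cholesterol from acetyl-CoA through mevalonate, farnesyl diphosphate and squalene, and build fatty acids from acetyl-CoA through malonyl-CoA. SREBP transcription factors switch on both pathways. When membrane cholesterol is low, SCAP carries SREBP from the endoplasmic reticulum to the Golgi, where proteases free its active part, and INSIG proteins hold it back when sterols are plentiful. In macrophages, type I interferon and the interferon-induced oxysterol 25-hydroxycholesterol are known to lower sterol synthesis, and LXR receptors drive cholesterol export.

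Recovered reads per library came to 27282354 and 28517346 in the mutants and 30026622 to 33119434 in wt. Samhd1 read 1279 (mutant 1) and 1431 (mutant 2), versus 17823.5, 16777 and 18274 across wt 1 to 3, and Cgas read 184 (mutant 1) and 85.1 (mutant 2), versus 968 to 1212 across wt. The general macrophage markers Adgre1, Csf1r, Cd68 and Lyz2 were abundant, but of 13 markers of resident large peritoneal macrophages the defining Gata6 and Timd4 had 0 reads in all 5 libraries. The other markers of that list were detected, but Selp, Serpinb2 and Ltbp1 only at 1 to 8 reads per library. Cd9 was the most abundant at 5117 (mutant 1) and 4393 (mutant 2), versus 4697 to 5242 across wt. It made up most of the list sum, which was 5809.9 and 4949 in the mutants and 5342 to 5959.7 in wt. Of the 8 genes of the list that were tested, 0 rose by limma and 1, Icam2, fell (log2 -0.99, limma adjusted p = 0.0184). At unadjusted p 3 were higher, and by edgeR, DESeq2 and limma-voom 0 were higher. Of 7 adipocyte markers, Adipoq, Plin1, Adig, Cfd and Retn stayed at or under 3 reads per library. Lipe, a lipase gene, had 585 (mutant 1) and 683 (mutant 2), versus 605 to 655 across wt, and Fabp4 rose to 105 (mutant 1) and 119 (mutant 2), versus 49.7, 50.3 and 34.3 across wt (log2 1.3, limma adjusted p = 0.0245). The summed count of 5 hepatocyte markers was 2.94 and 3.19 in the mutants and 0.829 to 3.71 in wt. Ribosomal Rn18s took 5.28% of reads in mutant 1 and 4.04% in mutant 2, versus 0.599%, 1.47% and 1.64% across wt 1 to 3. The 2 mutant libraries stood apart from each other in the genes described here, as did wt 2 from wt 1 and wt 3, so values are given library by library.

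All 33 genes were expressed and all 33 passed the filter of 10 normalized counts in at least 2 libraries. A normalized count is the authors' read count divided by a size factor per library, and gene values below are in this unit unless another is named. Per kilobase of exon, the stearoyl-CoA desaturase Scd2 had the highest mean level, 4739.5 normalized counts per kilobase over the 5 libraries. The sterol sensor Insig1 followed with 2282, then the citrate lyase Acly with 1694, the desaturase Fads1 with 1521 and Srebf2, which encodes SREBP2, with 1512. Srebf1, which encodes SREBP1, averaged 899.7 on the same scale, and Scd1 averaged 1029.7. At the low end were the malic enzyme Me1 with 54.97 and the farnesyl diphosphate synthase Fdps with 56.02. Within the sterol pathway, Hmgcs1, which makes HMG-CoA, was the most abundant enzyme at 890.4 normalized counts per kilobase, followed by the lanosterol demethylase Cyp51 at 738.3 and squalene epoxidase Sqle at 623.7.

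**Figure D1:**
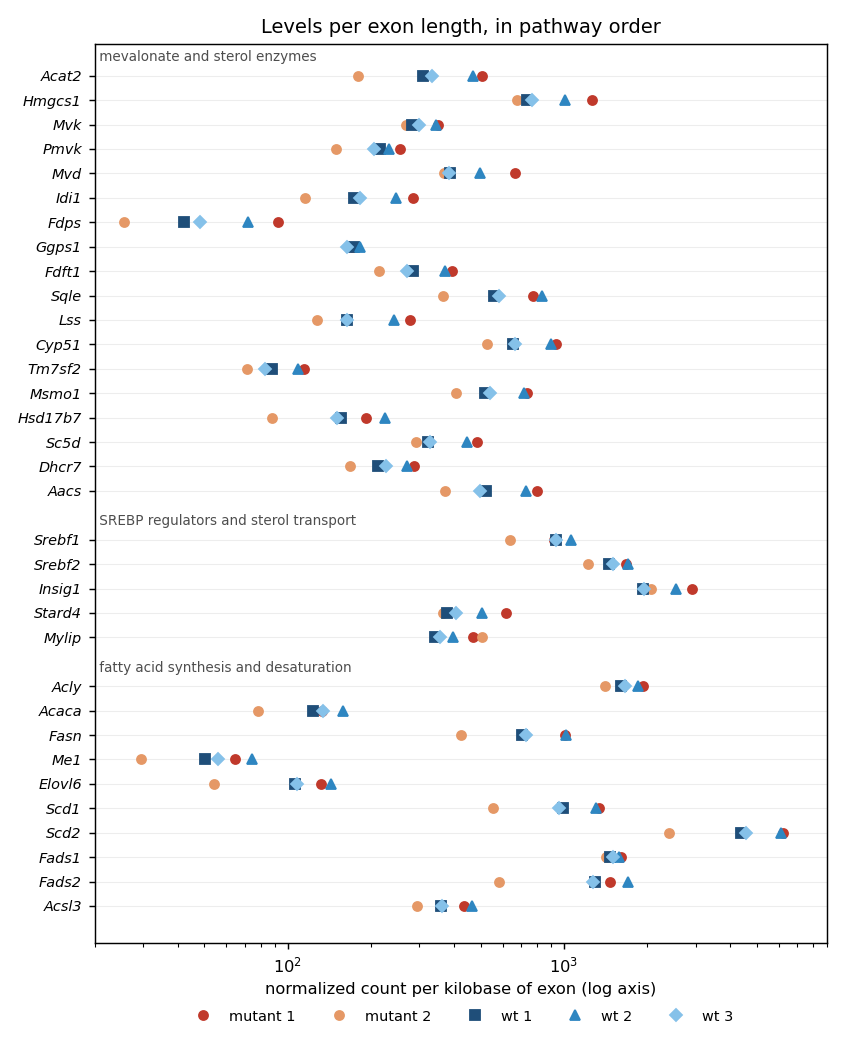
Normalized count per kilobase of merged exons (log axis) for the 33 genes in pathway order; each symbol is 1 library, mutants 1 and 2 as circles and wt 1 to 3 as a square, a triangle and a diamond. Levels span from means of 54.97 for Me1 to 4739.5 for Scd2, and mutant 2 lies leftmost in most rows.

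Mutant and wt values overlapped in 31 of 33 genes, the exceptions being Mylip and Srebf1. Of all genes tested, 24.3% had both mutants above all wt libraries and 26.9% had both below. The 33 genes separated mutant 1 from mutant 2 and, by less, wt 2 from wt 1 and wt 3, and nearly all did so in the same order. Relative to the wt mean, the median of the 33 genes stood at a log2 difference of 0.32 in mutant 1, which is 1.25-fold, and at -0.52 in mutant 2, which is 0.695-fold. The wt libraries stood at -0.15 (wt 1), 0.28 (wt 2) and -0.12 (wt 3), which placed the 2 mutants on either side of the wt mean. Over all 14977 genes tested the medians lay between -0.01 and 0.01 in each library. Summed normalized counts of the 33 genes were 149083.5 in mutant 1 and 82529.5 in mutant 2, versus 111517.8, 145727.6 and 114446.7 across wt 1 to 3.

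Counts of genes with each order gave the same picture. Mutant 2 was below all 3 wt libraries in 30 of 33 genes, a pattern found in 40.2% of all genes tested. Mutant 1 was above all 3 wt libraries in 22 of 33 (33% of all genes tested) and below all of them in 1, Srebf1 (35.7%), while mutant 2 was above all of them in 1, Mylip (39.7%). Mutant 1 exceeded mutant 2 in 31 of 33 (49.4%), by at least 1.5-fold in 24 (10.3%) and by at least 2-fold in 13 (4.35%). Within wt, wt 2 was the highest in 33 of 33 genes (42.3%). In 30 of 33 genes wt 2 was the highest wt library and mutant 2 the lowest of all 5, against 21.8% of all genes tested, and the exceptions were Ggps1, Insig1 and Mylip. The part of age and sex in this order was not tested.

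**Figure D2:**
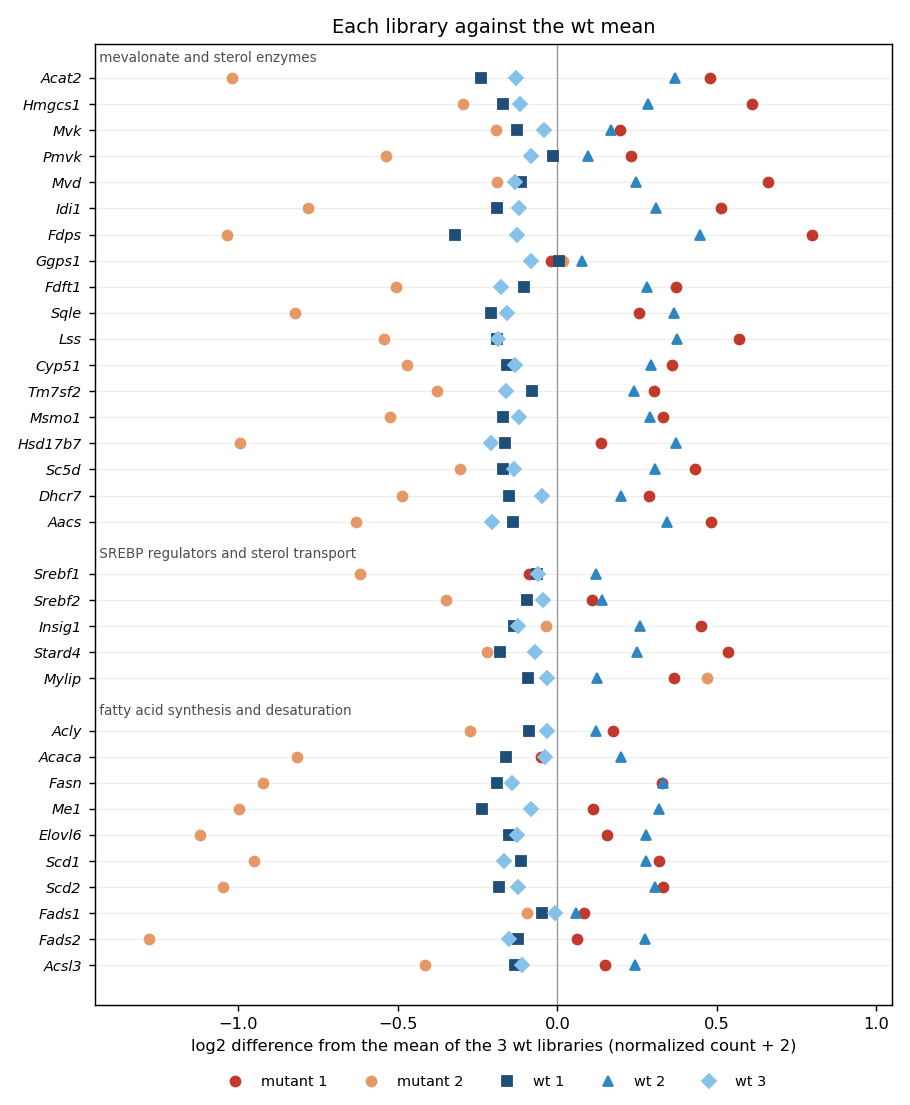
Log2 difference of each library from the mean of the 3 wt libraries for the 33 genes, in pathway order, with mutants as circles and wt as squares, triangles and diamonds. Mutant 2 lies left of every wt library in 30 rows, mutant 1 lies right of every wt library in 22 rows, and wt 2 is the rightmost wt library in all 33.

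The first enzymes of the mevalonate pathway followed this order with different amplitudes. Acat2, the cytosolic thiolase that condenses acetyl-CoA, read 1289.8 (mutant 1) and 456 (mutant 2), versus 784, 1195 and 847 across wt 1 to 3. Hmgcs1 read 5812 (mutant 1) and 3103 (mutant 2), versus 3384, 4639.5 and 3513 across wt. Mutant 1 was highest and mutant 2 lowest for both genes, with mutant 1 over mutant 2 ratios of 2.83 and 1.87. Mvk, the mevalonate kinase, varied less, with 940.4 (mutant 1) and 719 (mutant 2), versus 752, 922 and 798 across wt. The phosphomevalonate kinase Pmvk (1.71-fold) and the decarboxylase Mvd (1.80-fold) also differed between the mutants, and Mvd reached 1235 in mutant 1 and 685 in mutant 2, against 713 to 927 in wt.

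Fdps, which makes farnesyl diphosphate, had the widest gap of the set, with 388 (mutant 1) and 107 (mutant 2), versus 177, 303 and 203 across wt 1 to 3, a 3.61-fold difference between the mutants. Idi1, the isomerase just before it, read 993 (mutant 1) and 404 (mutant 2), versus 610.1, 863 and 639.6 across wt (2.46-fold between the mutants). Ggps1 extends farnesyl diphosphate for protein prenylation and lies off the sterol route. Its counts were 807 (mutant 1) and 829 (mutant 2), versus 822, 864 and 774 across wt, and its 2 mutant values fell inside the wt range.

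From squalene synthesis onward every enzyme kept the same order of mutant 2 lowest and wt 2 highest among wt. Sqle read 4293 (mutant 1) and 2033 (mutant 2), versus 3110.4, 4634 and 3225 across wt 1 to 3. The lanosterol synthase Lss read 2986 (mutant 1) and 1381 (mutant 2), versus 1765, 2609 and 1769 across wt. The mutant 1 over mutant 2 ratio was 2.11 for Sqle, 2.16 for Lss and 2.19 for the ketoreductase Hsd17b7. It was 1.84 for Fdft1, the squalene synthase. After lanosterol, it was 1.81 for the methyl oxidase Msmo1, 1.78 for Cyp51, 1.71 for Dhcr7, 1.66 for Sc5d and 1.6 for Tm7sf2. Aacs, which returns acetoacetate to lipid synthesis, read 3089 (mutant 1) and 1430.0 (mutant 2), versus 2011, 2809.7 and 1919.6 across wt.

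The 5 genes of SREBP control and sterol transport had a smaller median gap between the mutants, 1.4-fold, against 1.82-fold for the sterol enzymes and 2.27-fold for the fatty acid genes. Srebf2 read 12024 (mutant 1) and 8758 (mutant 2), versus 10449, 12275 and 10811 across wt 1 to 3. Srebf1 read 5188 (mutant 1) and 3592 (mutant 2), versus 5277, 5997 and 5289 across wt, so both mutants lay below all wt libraries. It was the only 1 of the 33 with that pattern, which 26.9% of all genes tested showed. Insig1, itself an SREBP target that retains SREBP in the endoplasmic reticulum, read 8982 (mutant 1) and 6413 (mutant 2), versus 5979.6, 7873 and 6041 across wt, and here mutant 2 lay within the wt range. Stard4, a sterol carrier and SREBP target, read 3452 (mutant 1) and 2046 (mutant 2), versus 2104, 2829 and 2268 across wt.

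Mylip did not follow this order between the mutants. It encodes IDOL, a ubiquitin ligase induced by LXR, which senses sterol excess. Mylip read 1521 (mutant 1) and 1634 (mutant 2), versus 1107, 1285 and 1154 across wt 1 to 3. Both mutants were above every wt library, with mutant 2 the highest, a pattern of non-overlap found in 24.3% of all genes tested.

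The 10 fatty acid genes had a median log2 difference from the wt mean of 0.15 in mutant 1 and -0.94 in mutant 2, against 0.37 and -0.52 for the 18 sterol enzymes in the same libraries. Scd2 read 34088 (mutant 1) and 13101 (mutant 2), versus 23866, 33522 and 24906 across wt 1 to 3. Scd1, its neighbour on chromosome 19 with the same Δ9-desaturase function, read 6553 (mutant 1) and 2716 (mutant 2), versus 4859, 6375 and 4683 across wt. Fads2, the Δ6-desaturase of polyunsaturated fatty acids, read 4861 (mutant 1) and 1918 (mutant 2), versus 4275, 5634 and 4196 across wt, the lowest relative value of the whole set at -1.28 on the log2 scale in mutant 2. Fads1, the Δ5-desaturase that acts after it, read 7757 (mutant 1) and 6857 (mutant 2), versus 7078, 7616 and 7276 across wt. The mutant 1 over mutant 2 ratio was 2.53-fold for Fads2 and 1.13-fold for Fads1.

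The supply and chain-building steps were graded in the same way. Acly, which makes cytosolic acetyl-CoA, read 10175.5 (mutant 1) and 7451 (mutant 2), versus 8472, 9797 and 8821 across wt 1 to 3. Acaca, the acetyl-CoA carboxylase, read 2270.3 (mutant 1) and 1335 (mutant 2), versus 2104, 2701 and 2293 across wt. Fatty acid synthase, Fasn, read 11084 (mutant 1) and 4656 (mutant 2), versus 7735, 11113 and 8001 across wt. The elongase Elovl6 (2.43-fold between the mutants), the NADPH-yielding malic enzyme Me1 (2.18-fold) and the acyl-CoA synthetase Acsl3 (1.48-fold) had mutant 2 lowest as well. Mutant 1 exceeded all wt libraries in 4 of these 10 genes, and in 15 of the 18 sterol enzymes, where 33% of all genes tested had that pattern; the difference between the lists was not tested.

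The gap between the mutants and the gap within wt were graded alike across the 33 genes, although they come from different libraries. The median gap was 1.80-fold for mutant 1 over mutant 2 and 1.33-fold for wt 2 over wt 1 and wt 3. Across genes the 2 log2 gaps had a Pearson r of 0.838 and a Spearman rho of 0.803 (n = 33 genes, not independent replicates, each gap resting on the same libraries). Over all 14977 genes tested the same values were 0.362 and 0.402. Fdps had the widest gap on both sides, 1.83 and 0.67 on the log2 scale, and Fads1 and Ggps1 were among the narrowest on both.

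**Figure D3:**
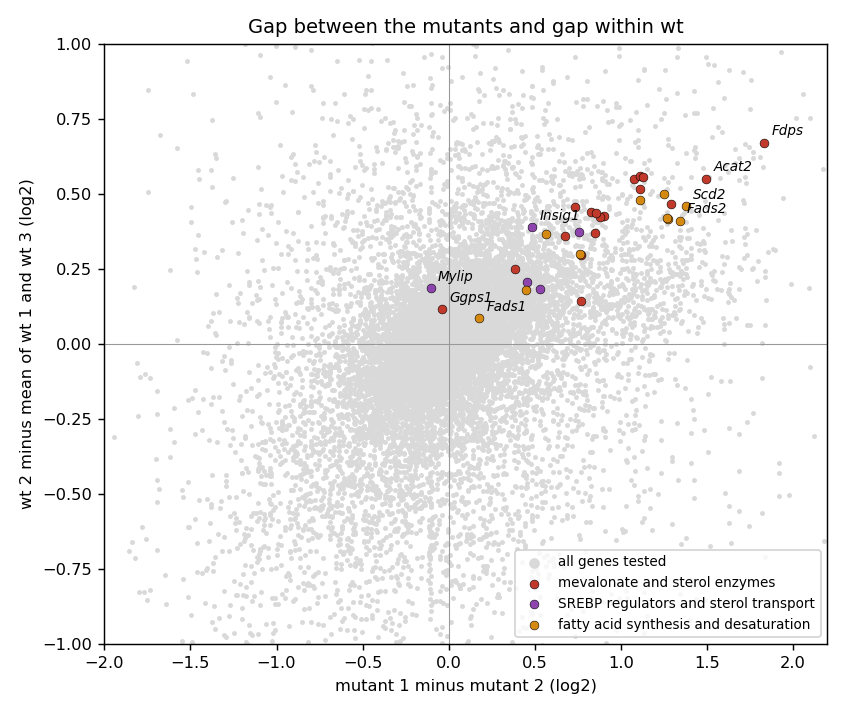
Log2 gap of mutant 1 over mutant 2 (x axis) against the log2 gap of wt 2 over the mean of wt 1 and wt 3 (y axis) for all genes tested (grey; 387 of 14977 lie beyond the axes) and for the 33 genes in 3 colours by role. The 33 genes lie at the upper right, apart from Mylip and Ggps1 left of the vertical zero line.

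Promoter sequences are shown for Hmgcs1 and Fasn, which followed the common order, and for Insig1 and Mylip, which were exceptions to it. They are the 250 bases before the RefSeq start on GRCm38.p6, 5′ to 3′ on the gene's strand, from chr13:119690101-119690350 (plus strand, Hmgcs1), chr11:120824548-120824797 (minus strand, Fasn), chr5:28071162-28071411 (plus strand, Insig1) and chr13:45389492-45389741 (plus strand, Mylip). Capitals mark matches, on either strand, to the sterol regulatory element TCACNCCAC, the NF-Y box CCAAT, the GC box GGGCGG, the E-box CACGTG and the LXR motif AGGTCA. In Insig1 the E-box and the LXR motif overlap.
Hmgcs1: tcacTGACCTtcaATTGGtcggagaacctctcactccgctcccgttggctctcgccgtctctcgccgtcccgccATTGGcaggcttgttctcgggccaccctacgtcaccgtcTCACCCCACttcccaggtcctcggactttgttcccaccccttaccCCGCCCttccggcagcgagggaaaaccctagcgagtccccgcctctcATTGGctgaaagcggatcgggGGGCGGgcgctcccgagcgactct
Fasn: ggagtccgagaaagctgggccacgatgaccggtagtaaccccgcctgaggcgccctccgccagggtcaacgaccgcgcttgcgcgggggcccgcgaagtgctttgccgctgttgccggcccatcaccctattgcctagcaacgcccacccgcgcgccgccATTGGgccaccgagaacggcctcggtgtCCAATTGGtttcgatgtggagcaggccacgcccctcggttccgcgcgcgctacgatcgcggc
Insig1: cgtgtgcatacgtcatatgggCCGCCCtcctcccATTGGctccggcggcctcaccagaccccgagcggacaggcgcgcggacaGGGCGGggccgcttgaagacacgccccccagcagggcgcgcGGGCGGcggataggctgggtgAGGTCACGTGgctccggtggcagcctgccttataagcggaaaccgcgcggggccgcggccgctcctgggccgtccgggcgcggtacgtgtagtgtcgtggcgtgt
Mylip: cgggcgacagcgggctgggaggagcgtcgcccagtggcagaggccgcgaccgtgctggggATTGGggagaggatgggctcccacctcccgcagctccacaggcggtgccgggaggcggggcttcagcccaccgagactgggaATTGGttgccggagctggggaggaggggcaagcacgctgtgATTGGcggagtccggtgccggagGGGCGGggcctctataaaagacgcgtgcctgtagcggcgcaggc

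Of the 33 genes, 26 matched a promoter in the RefSeq table. Over windows of 250 bases before to 50 after the start, the NF-Y box occurred in 21 of 26 (80.8%), against 41.1% of 27025 genes, and the GC box in 20 of 26 (76.9%), against 38.2%. The sterol regulatory element as spelled occurred in Hmgcs1 alone, 1 of 26 (3.85%) against 1.44% of all genes. The E-box occurred in 4 of 26 (15.4% against 8.09%) and the LXR motif in 5 of 26 (19.2% against 18.1%). The Mylip window holds NF-Y and GC boxes as well. These matches describe letters in a short window and were not tested as binding sites.

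The comparison of mutant with wt used limma on log2(normalized count + 2) over 14977 genes, with Benjamini-Hochberg adjustment at 0.05. Of the 33 genes, 1 rose and 0 fell, while 3.71% of all genes tested rose and 4.89% fell. The counts at unadjusted p under 0.05 were 1 and 0, and edgeR, DESeq2 and limma-voom also gave 1 and 0. Mylip was the gene that rose, at 1577 ± 80.1 normalized counts in the mutants (SD, n = 2) against 1182 ± 92.4 in wt (SD, n = 3), a log2 fold change of 0.42 (SE 0.0912, limma adjusted p = 0.0438). Its call was lost without mutant 2 or any single wt library (limma adjusted p = 0.0655 to 0.172). In the authors' deposited table Mylip was also the only 1 of the 33 with an adjusted p under 0.05 (log2 fold change of wt over mutant -0.392, adjusted p = 0.028). By the same threshold that table has 3.51% of its genes up and 3.66% down in the mutants.

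Of the other 32 genes, fold changes ran from -0.61 for Fads2 to 0.24 for Mvd on the log2 scale. The median was -0.10 over all 33 against 0.00 over all genes tested. Of the 33, 25 were negative, against 7479 of all 14977 genes tested. Mutant 1 was above the wt mean in 30 of 33 genes (49.1% of all genes tested), and mutant 2 was below it in 31 (49.7%). All 10 fatty acid genes had negative fold changes, with a median of -0.34. Their median difference from the wt mean was 0.15 in mutant 1 and -0.94 in mutant 2. The 95% interval lay within 2-fold in both directions for 22 of 33 genes. It was narrowest for Fads1 (-0.20 to 0.19) and Ggps1 (-0.20 to 0.20), and widest for Fdps (-1.38 to 1.15). Srebf1 had -0.35 (-0.73 to 0.03, limma adjusted p = 0.185), Acaca -0.43 (-0.98 to 0.11, limma adjusted p = 0.24) and Fads2 -0.61 (-1.50 to 0.28, limma adjusted p = 0.305).

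**Figure D4:**
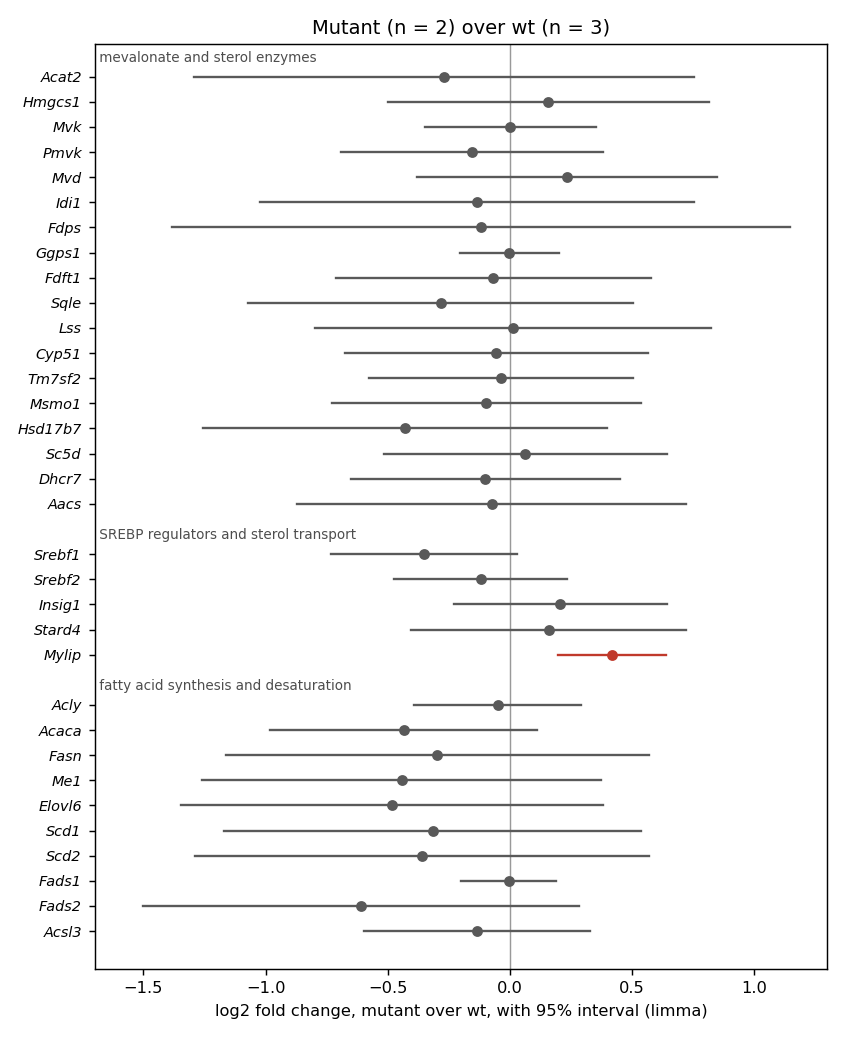
Log2 fold change of mutant (n = 2) over wt (n = 3) with 95% intervals from limma, for the 33 genes in pathway order; red marks an adjusted p under 0.05. Mylip alone is red, at 0.42, and the other 32 intervals include 0.

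The same test was run with the mutant libraries taken singly. Mutant 2 set against the 3 wt libraries had 20 of 33 genes lower (19.9% of all genes tested), from -1.28 for Fads2 to -0.27 for Acly (limma adjusted p = 0.00046 to 0.0498), and Mylip higher at 0.47 (limma adjusted p = 0.00873; 14.0% of all genes tested). The 20 comprised 8 of the 10 fatty acid genes, 10 of the 18 mevalonate and sterol enzymes and both SREBP genes. Mutant 1 against wt had 1 of 33 higher, Mvd (0.66, limma adjusted p = 0.0327), which is near the 3.36% of all genes tested, and 0 lower (0 also at unadjusted p under 0.05; 5.71%). On the higher side, more genes than Mvd were under the unadjusted threshold for mutant 1. By size, mutant 1 stood above the wt mean in 30 of 33 genes and below it in 3, at a median log2 difference of 0.32. In these fits the single mutant library is assumed to vary as much as the wt libraries do. The difference between the 2 mutants has no replicate.

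Of other sterol enzymes, by limma 0 of 5 tested rose or fell, as by edgeR, DESeq2 and limma-voom, and 1 was lower at unadjusted p. The list medians were 0.11 in mutant 1 and -0.47 in mutant 2, against -0.05, 0.08 and -0.04 in wt 1 to 3.

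Among genes that process SREBP or sense sterols, by limma 0 of 14 tested rose or fell, as by edgeR, DESeq2 and limma-voom, with 2 higher and 2 lower at unadjusted p. Marchf6, the ligase that degrades squalene epoxidase, read 5062 (mutant 1) and 4808 (mutant 2), versus 5178, 5148 and 5379 across wt 1 to 3. The list medians were -0.01 and -0.07 in the mutants and -0.04 to 0.07 in wt.

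Further fatty acid genes numbered 25 tested, of which 2 rose and 0 fell by limma, with 4 higher and 3 lower at unadjusted p. edgeR and DESeq2 called 3 higher and limma-voom 2, and all of these called 0 lower. Lpin1, a phosphatidate phosphatase of glycerolipid synthesis, rose to 1830.0 (mutant 1) and 2275 (mutant 2), versus 955, 992 and 949 across wt 1 to 3 (log2 1.08, limma adjusted p = 0.00344, and called without each library in turn). Idh1, the cytosolic NADP isocitrate dehydrogenase, rose to 5710.1 (mutant 1) and 6953 (mutant 2), versus 3748, 3981 and 3684 across wt (log2 0.73, limma adjusted p = 0.0115). Idh1 was not called without wt 1 or wt 3 (up to 0.0851). Both genes were higher in mutant 2 than in mutant 1. Pgd, another source of NADPH, was more abundant at 12771 (mutant 1) and 11153 (mutant 2), versus 10288 to 11706 across wt and did not pass. Hacd4, a dehydratase-like gene of chain elongation, read 8474 (mutant 1) and 11319.6 (mutant 2), versus 6875, 6257 and 7047 across wt (limma adjusted p = 0.0553).

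On the isoprenoid branch after farnesyl diphosphate, 0 of 14 genes rose and 1 fell by limma, with 1 higher and 3 lower at unadjusted p. DESeq2 called 1 higher and 2 lower, and edgeR and limma-voom each called 0 higher and 1 lower. Coq2, which joins the isoprenoid tail to the ring of ubiquinone, fell to 695 (mutant 1) and 526 (mutant 2), versus 989.8, 1111 and 1004 across wt 1 to 3 (log2 -0.77, limma adjusted p = 0.0243). Leaving out any 1 wt library ended the Coq2 call (up to 0.112). The abundant genes Nus1, with 3606 and 3449 in the mutants and 3383 to 3797 in wt, and Zmpste24, with 2629.5 and 2230.5 in the mutants and 2708 to 2995 in wt, did not pass.

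**Figure D5:**
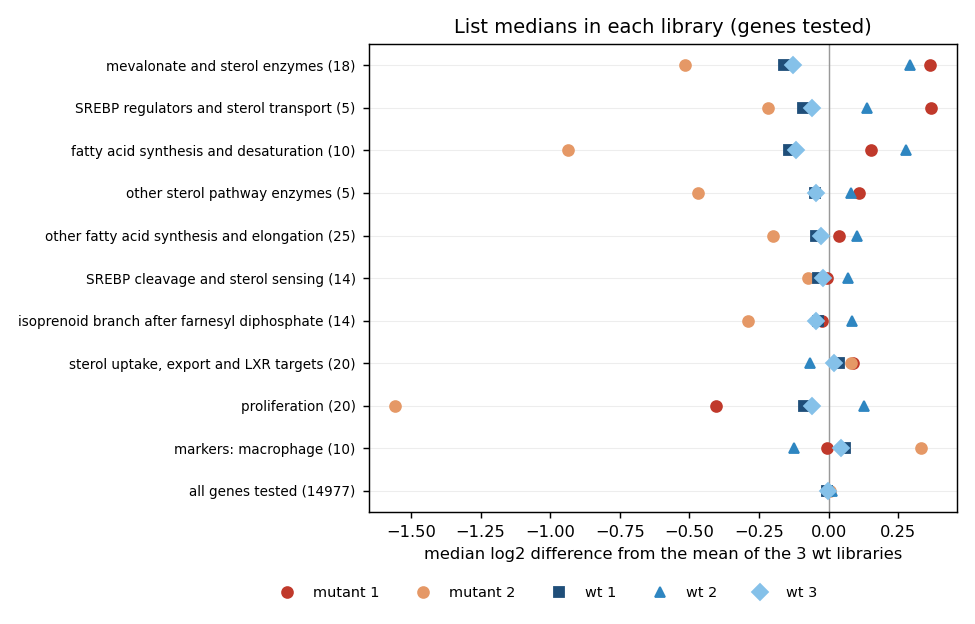
Median log2 difference from the wt mean in each library, for the 3 groups of the 33 genes, other lists of the pathway, proliferation genes, macrophage markers and all genes tested (number of genes in brackets). Mutant 2 is lowest and wt 2 highest among wt for the synthesis lists and for proliferation genes, and macrophage markers run the other way.

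Sterol uptake, export and LXR target genes had 3 of 20 higher and 1 lower by limma, against 3.71% and 4.89% of all genes tested. At unadjusted p 7 were higher and 2 lower, against 2077 and 2644 of all 14977 genes tested. edgeR called 4 higher and 1 lower, DESeq2 5 and 2, and limma-voom 3 and 1. Npc1, which moves cholesterol out of lysosomes, rose to 11671 (mutant 1) and 11693 (mutant 2), versus 8773, 9441 and 9029.9 across wt 1 to 3 (log2 0.36, limma adjusted p = 0.029). The LXR partner Rxra (log2 0.74, limma adjusted p = 0.0413) and the cholesterol esterifying enzyme Soat1 (0.58, limma adjusted p = 0.024) rose, and the endosomal sterol carrier Stard3 fell (-0.50, limma adjusted p = 0.0105). None of these 4 was called without wt 1 or wt 3 (up to 0.16). Apoe, the apolipoprotein of LXR-driven export, read 6670.1 (mutant 1) and 30423 (mutant 2), versus 2979, 1301 and 2784 across wt, with mutant 2 highest and wt 2 lowest (log2 2.69, limma adjusted p = 0.0567). That mirror order was present in 8 of 20 genes of this list, among them Abca1, Pltp and Soat1, in 0 of the 33 synthesis genes and in 18.2% of all genes tested. The most abundant genes of the list, the endocytic receptor Lrp1 and the lysosomal lipase Lipa, did not pass: Lrp1 had 75592 (mutant 1) and 66618 (mutant 2), versus 70444 to 86422 across wt, and Lipa had 36528 (mutant 1) and 35517 (mutant 2), versus 37459 to 38960.5 across wt.

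Of 6 genes of oxysterol synthesis and breakdown 3 were tested, and 0 rose or fell by limma, with 1 higher and 1 lower at unadjusted p. edgeR and limma-voom gave 0 and DESeq2 gave 1 higher and 1 lower. Cyp27a1, which hydroxylates the cholesterol side chain, had 1359 (mutant 1) and 2997 (mutant 2), versus 893, 562 and 919.5 across wt (log2 1.38, limma adjusted p = 0.0665). Gpr183, an oxysterol receptor, had 1529.5 (mutant 1) and 1874 (mutant 2), versus 1535, 1252 and 1566.5 across wt. The 25-hydroxylase gene Ch25h, inducible by interferon, read 85.1 (mutant 1) and 71.2 (mutant 2), versus 119, 218 and 154 across wt (log2 -1.01, limma adjusted p = 0.0663).

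Other gene groups moved with the same libraries. The median of 20 proliferation genes stood at -0.40 in mutant 1 and -1.56 in mutant 2, against -0.09, 0.13 and -0.06 in wt 1 to 3, and Mki67 read 15384 (mutant 1) and 6795 (mutant 2), versus 15365 to 16433 across wt. In 19 of these 20 genes wt 2 was the highest wt library and mutant 2 the lowest of all 5 (21.8% of all genes tested). Mutant 1 was at least 1.5-fold mutant 2 in 20 of the 20 (10.3%) and at least 2-fold in 19 (4.35%). Of these 20 genes, 1 fell by limma, with 18 lower at unadjusted p, and 0 rose by limma (0 at unadjusted p and by edgeR, DESeq2 and limma-voom). The summed count of 10 macrophage markers was 469636 in mutant 1 and 762674 in mutant 2, versus 330502, 283594 and 321612 across wt 1 to 3. The summed count of 8 B cell markers, led by Ighm, was 5769.8 and 6787 in the mutants and 2904 to 3539 in wt. By edgeR 1 of the proliferation genes was lower, by limma-voom 2 and by DESeq2 8. The part of these groups in the order of the synthesis genes was not tested. In bulk RNA, fewer cells of a type and less RNA per cell cannot be told apart. All 20 interferon-stimulated genes fell by limma, and their median log2 difference from the wt mean was -2.64 (mutant 1) and -2.45 (mutant 2), versus -0.02 to 0.03 across wt.

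Some counts could include reads of neighbouring genes, since no source used here gives the strand setting of the counting. Fdft1 overlaps Ctsb on the opposite strand, which had 371541 to 474074 reads per library, and Ggps1, Cyp51 and Srebf1 overlap Arid4b, Akap9 and Rai1 on the opposite strand. Tm7sf2 and Acsl3 overlap Vps51 and Utp14b on the same strand. Acat3, the near-identical copy of Acat2, had 7 to 16 reads per library.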

How the data were processed

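Messenger RNA of sorted mouse peritoneal macrophages was sequenced in 2 mutant and 3 wt libraries. Per the submitters' processing notes, STAR, featureCounts of Subread, DESeq 1.6.1 and the build mm10 were used, with no roles or order given here. The deposited signal holds gene-level reads that the authors scaled by library size factors; dividing by the smallest step in each library recovered whole reads for 100% of values within 0.001 reads. The authors also deposited a log2 fold change, which runs wt over mutant, and an adjusted p-value, whose calls are quoted as theirs. No reads of these libraries were realigned.

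The values were analysed as log2(normalized count + 2) in limma (version 3.58.1, under R 4.3.3), two-sided and with the prior variance following intensity, for the 14977 of 30478 genes with at least 10 normalized counts in at least 2 libraries. Adjusted p-values are Benjamini-Hochberg over those genes, with a threshold of 0.05. Alternatives were edgeR 4.0.16, DESeq2 1.42.0 and limma-voom on the recovered reads, other scalings, pseudocounts, filters and variance priors, each library left out, the 9-week wt library alone, and a replicate block. The scripts were tested on simulated data.

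The genes, the lists and the tests were chosen with earlier results of these data known. All 33 genes are accounted for; of each other list, those past the threshold and the 2 most abundant are named, with further genes (Apoe and Ch25h among them) chosen after their values were seen. Some genes that this rule would name are not reported here. The wt libraries differ in age or sex and so come from different animals; for the 2 mutant libraries, whose age and sex match, no source used here says so, and their spread may be technical. Exon lengths came from GENCODE M21 by Ensembl ID (97.1% of genes matched) and promoters from RefSeq GRCm38.p6. The deposited coordinates were not used.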

Additional observations from a re-analysis of the deposited data

How the results depend on the processing

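The 5 libraries limit what can be said: 22 of 33 genes have an interval within 2-fold both ways, and age differs with genotype. The count of the 33 genes called lower was 0 in each alternative with both mutants. The count called higher was 0 without a filter, without the intensity trend, against the 9-week wt library alone and with the replicate block. Over all genes, DESeq2 called 1121 higher and 1308 lower, no intensity trend gave 141 and 352, the 9-week wt library alone gave 1 and 23, and the replicate block gave 6 and 75. With 1 library left out, the calls ranged from 29 to 2062 higher and 173 to 2929 lower over all genes, and from 0 to 1 higher and 0 to 20 lower among the 33. Same-numbered libraries did not deviate together across genes (correlations -0.228 and -0.362). The mutants deviate from their own mean by opposite amounts, so these correlations are not independent. They cannot show whether same-numbered libraries shared a preparation.

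With 1 library left out, log2 fold changes changed sign for 30 of the 33 genes, with ranges for Acat2 -1.02 to 0.48, Hmgcs1 -0.29 to 0.61, Mvk -0.19 to 0.20, Pmvk -0.54 to 0.23, Mvd -0.19 to 0.66, Idi1 -0.78 to 0.51, Fdps -1.03 to 0.80 and Ggps1 -0.0422 to 0.0371. The ranges were for Fdft1 -0.51 to 0.37, Sqle -0.82 to 0.26, Lss -0.54 to 0.57, Cyp51 -0.47 to 0.36, Tm7sf2 -0.38 to 0.30, Msmo1 -0.52 to 0.33, Hsd17b7 -0.99 to 0.14 and Sc5d -0.30 to 0.43. Further ranges were for Dhcr7 -0.49 to 0.29, Aacs -0.63 to 0.48, Srebf2 -0.35 to 0.11, Insig1 -0.0362 to 0.45, Stard4 -0.22 to 0.54, Acly -0.27 to 0.17, Fasn -0.92 to 0.33 and Me1 -0.9963 to 0.11. The remaining ranges were for Elovl6 -1.12 to 0.16, Scd1 -0.95 to 0.32, Scd2 -1.05 to 0.33, Fads1 -0.0942 to 0.0837, Fads2 -1.28 to 0.0614 and Acsl3 -0.42 to 0.15. The sign changed for 8 genes without mutant 1 and for 22 without mutant 2, the 2 libraries whose medians lie on either side of the wt mean. It changed for 4 genes without wt 1, 10 without wt 2 and 3 without wt 3. Fold changes near 0 also changed sign elsewhere. edgeR with TMM gave Fdps 0.13, Ggps1 0.0026, Tm7sf2 0.0005, Aacs 0.0165 and Fads1 0.0027. DESeq2 gave 0.1285, 0.0045, 0.0011, 0.0167 and 0.0045 for the same genes, and edgeR with DESeq2 size factors 0.1337, 0.0046, 0.0017, 0.0173 and 0.0045. limma-voom gave Ggps1 0.0032 and Fads1 0.0, and TMM scaling 0.004 and 0.0002. The 9-week wt library alone gave Fdps 0.01, Ggps1 0.08, Fdft1 0.11, Cyp51 0.0779, Tm7sf2 0.12, Msmo1 0.0247, Aacs 0.13 and Fads1 0.0034. The replicate block gave Mvk -0.0179, Lss -0.0794 and Sc5d -0.004. The cause was not tested.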
